A study of Danio rerio with 12 samples.

Results

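Genes of mitosis and cytokinesis were examined in injured zebrafish ventricles that lacked the transcriptional repressor Grl and in those of wild-type (WT) siblings. The genes were taken by symbol, as those whose names begin with cenp, bub, aurk, ncap, mad2, spc2, nuf2, ndc80, tpx2, anln, prc1, incenp, cdca, cdc20, espl1, racgap1, ect2, birc5 or top2a, the numbered plk and smc genes, cyclins A and B, cdk1, ttk and the kinesins kif2c, kif4, kif11, kif15, kif18, kif20, kif22 and kif23. This rule used no measured value, though it was chosen with earlier results of these data known, and took 77 of the 32105 genes of the table. Reads were sufficient to test 70 of them. After normalization 58 of the 70 (82.9%) were higher on average in the mutant libraries, against 46.9% of all 15602 genes tested, and the median log2 fold change was 0.50 against -0.05 over all genes. Log2 fold changes of single genes lay between -0.89 and 1.01, and none of the 70 had an adjusted p below 0.05, a level that 12 of all genes (0.0769%) reached. With libraries scaled to their total counts, 41 of the 70 were above 0 and 29 below, where 24.6% of all genes were above 0, and without grl5nt-/- replicate 2 the median was 0.30.

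The series holds 12 samples, of which 6 are used here, 3 WT and 3 grl5nt-/-. Ventricles were collected 7 days after part of the ventricle had been amputated (7 dpa) from fish of the AB strain aged 5 months, and each library was made from 6 pooled ventricles. The grl5nt-/- allele is a deletion of 5 nucleotides in the first exon of grl, made with CRISPR/Cas9, which brings in an early stop codon. The control fish were WT siblings, and both groups are labelled untreated. The other 6 samples, which carry Tg(cmlc2:nRSGG) with or without cmlc2:creER and received 4-HT, are not analysed here.

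In mitosis, Cdk1 bound to cyclin B drives the cell into division, condensin and cohesin shape and hold the chromosomes, and kinetochores attach them to the microtubules of the spindle. The spindle checkpoint holds back Cdc20 and the anaphase-promoting complex until attachment is complete, after which separase opens the cohesin ring and the central spindle and anillin help divide the cytoplasm. Most of these genes are transcribed mainly in late S, G2 and M phase, so that their transcripts are scarce in a tissue where few cells divide. In the zebrafish ventricle, cardiomyocytes and other cells enter the cell cycle in the days after resection. In RNA from whole ventricles, a change in the number of dividing cells and a change in the transcript level of each cell cannot be told apart.

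The total count per library was between 12520034 and 15006574. Levels are given as CPM, counts per 1000000 of the library total after multiplying that total by its TMM factor, which aligns the bulk of genes between libraries. The detection limit was set at 3 counts, or 0.155 to 0.293 CPM. The TMM factors ranged from 0.788 to 1.31 (1.31, 1.23 and 0.851 for the WT libraries in the order of their replicate numbers, and 1.14, 0.788 and 0.819 for the mutants). The libraries fell into 2 sides that cross the genotypes, because mt-co1, a mitochondrial gene, had no count in mutant replicate 1 and the first WT pair, replicates 1 and 2, but between 583890 and 739939 counts in the remaining libraries, WT replicate 3 and mutant replicates 2 and 3. The labels do not name this split as a batch. The TMM factors fell by side too, at 1.14 to 1.31 in the libraries without mt-co1 reads and 0.788 to 0.851 in those with them. The mutated gene, listed as hey2, had counts of 256, 177 and 127 in WT and 228, 218 and 189 in grl5nt-/- libraries, with a log2 fold change of 0.64 (adjusted p = 0.405, edgeR). Its reads were not lower in the mutants, so the level of hey2 does not check the genotype labels. Markers of cardiomyocytes were abundant in every library, with 16 of 18 listed genes in the table. Their summed level was 41053 to 42266 CPM in the libraries without mt-co1 reads and 54919 to 61581 CPM in those with them.

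Among the 70 tested genes, 10 were higher in grl5nt-/- libraries with an unadjusted p below 0.05 by the quasi-likelihood test of edgeR (14.3%, against 4.22% of all genes), namely ccnb1, cdk1, bub1, bub3, ttk, mad2l1, spc24, birc5a, cdca7b and aurkaip1. The 2 that were lower at that level were smc5 and plk3 (against 6.35% of all genes). The lowest adjusted p of any member was 0.370, for plk3. In 15 genes every mutant library was above every WT library (21.4%, against 6.95% of all genes) and in 3 genes every mutant library was below (against 8.64%). With DESeq2 in place of edgeR, 13 members were higher at an unadjusted p below 0.05 (5.41% of all genes). No member had an adjusted p below 0.05 by DESeq2, the lowest being 0.195, where 242 of all 15602 genes did. The 3 libraries per genotype are separate pools of fish, and an exact permutation test of a single gene cannot give a p below 0.1 with this number.

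**Figure D1:**
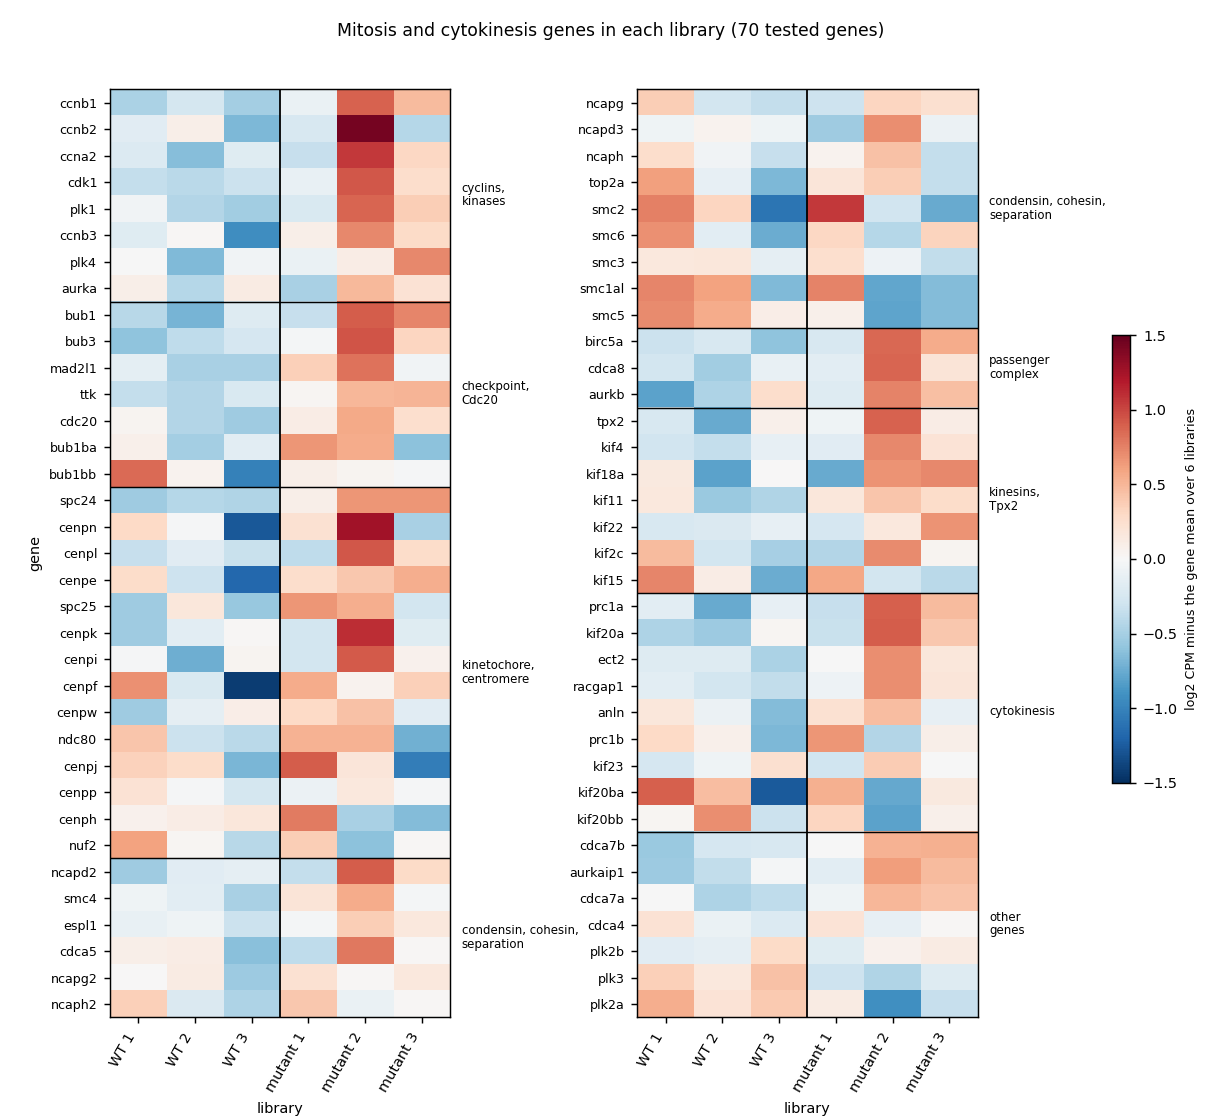
Level of each of the 70 tested genes in each library, as log2 CPM minus the mean of that gene over the 6 libraries, with genes grouped by role and, within a role, ordered by log2 fold change. Rows are genes and columns are libraries, WT left and grl5nt-/- right of the vertical line. The deepest red is mostly in mutant replicate 2, the highest library for 39 genes, and the deepest blue often in WT replicate 3, the lowest for 29.

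The genes grouped as mitotic cyclins and kinases were all higher on average in mutants, 8 of 8 tested, with a median log2 fold change of 0.76. They are aurka, ccna2, ccnb1, ccnb2, ccnb3, cdk1, plk1 and plk4. With total counts in place of TMM as the scale, 7 of the 8 were above 0 and the median was 0.38, and without grl5nt-/- replicate 2 the values were 6 of 8 and 0.45. Transcripts of ccnb1 (ENSDARG00000051923, chromosome 5, 54088191 to 54091953 in GRCz10), which encodes cyclin B1, were at 5.38, 6.27 and 5.25 CPM in WT and at 7.04, 14.1 and 10.5 CPM in grl5nt-/- libraries, given here and in what follows in the order of the replicate numbers. The groups did not overlap, and the lowest mutant library, replicate 1, was close to the highest WT library. The mean difference was a log2 fold change of 0.90 ± 0.31 (SE, with an edgeR adjusted p of 0.403), a fold of 1.87. Its partner kinase gene cdk1 (ENSDARG00000087554, chromosome 17, 20903855 to 20909625) was at 7.97, 7.76 and 8.23 CPM in WT and 9.50, 19.7 and 12.4 CPM in grl5nt-/- libraries. WT libraries lay within a narrow band and all mutant libraries above it, replicate 2 farthest. For cdk1 the log2 fold change was 0.79 ± 0.30 (SE, with an edgeR adjusted p of 0.428).

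For plk1, the Polo kinase that acts at centrosomes, kinetochores and the central spindle, levels were 6.47, 4.89 and 4.62 CPM in WT and 5.67, 12.4 and 8.69 CPM in grl5nt-/- libraries. Here WT replicate 1 was above mutant replicate 1, so the groups overlapped, and the log2 fold change was 0.73 ± 0.34 (SE, with an edgeR adjusted p of 0.486). The B-type cyclin gene ccnb3 did not overlap between genotypes, with 1.18 to 2.39 CPM in WT and 2.53 to 3.98 CPM in mutant libraries. The cyclin A2 gene ccna2, whose span overlaps that of the more abundant tmem33, was highest in mutant replicate 2 at 16.4 CPM, and its other mutant libraries, at 6.08 and 9.67 CPM, stood beside a WT range of 4.95 to 6.82 CPM. Log2 fold changes of the remaining members of this group, ccnb2, plk4 and aurka, were 0.83, 0.52 and 0.18, with SE from 0.38 to 0.65. The germline cyclin gene ccna1 was not tested, with 3 counts in WT replicate 2, 2 in mutant replicate 1 and 0 in the other libraries.

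In the spindle checkpoint group, which senses unattached kinetochores, 6 of 7 tested genes were higher on average in mutants and the median log2 fold change was 0.72, or 0.40 with total counts as the scale, where again 6 of 7 were above 0. Of the 7, 4 were higher at an unadjusted p below 0.05 by edgeR (57.1%, against 4.22% of all genes), namely bub1, bub3, ttk and mad2l1. That count was 0 with total counts (1.83% of all genes) and 0 to 3 with a library left out (1.88% to 10.6%). Transcripts of bub3 (ENSDARG00000075883, chromosome 12, 49193302 to 49197913), which binds the kinetochore scaffold and recruits Bub1, were at 8.08, 9.43 and 10.3 CPM in WT and 12.1, 23.9 and 15.5 CPM in grl5nt-/- libraries. Every mutant library was above every WT library. This gave bub3 a log2 fold change of 0.89 ± 0.29 (SE, with an edgeR adjusted p of 0.396). The checkpoint kinase gene ttk, also called Mps1, was at 3.42, 3.22 and 3.76 CPM in WT and 4.51, 6.31 and 6.35 CPM in grl5nt-/- libraries. These groups did not overlap either, and mutant replicates 2 and 3 were nearly equal. For ttk the log2 fold change was 0.72 ± 0.29 (SE, with an edgeR adjusted p of 0.451).

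The kinase gene bub1 was at 3.00, 2.45 and 3.53 CPM in WT and 3.14, 7.70 and 6.84 CPM in grl5nt-/- libraries. Mutant replicate 1 lay inside the WT range and the other mutant libraries above it. Its mean difference was a log2 fold change of 0.97 ± 0.39 (SE, with an edgeR adjusted p of 0.453). The gene mad2l1, which encodes the Mad2 inhibitor of Cdc20 and was singled out here after its values had been seen, was at 2.90, 2.27 and 2.27 CPM in WT and 4.17, 5.79 and 3.12 CPM in grl5nt-/- libraries, with a log2 fold change of 0.81 ± 0.35 (SE, with an edgeR adjusted p of 0.468). The gene cdc20, whose product Mad2 inhibits, was at 4.04, 2.86 and 2.66 CPM in WT and 4.24, 5.88 and 4.69 CPM in mutant libraries. In mad2l1 and cdc20 the groups did not overlap, by a margin of less than 1 CPM. For cdc20 the log2 fold change was 0.62 ± 0.32 (SE, with an edgeR adjusted p of 0.513). Of the paralogs bub1ba and bub1bb, which can share reads, the former had a log2 fold change of 0.54 (SE 0.47) and the latter of -0.15 (SE 0.55).

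Kinetochore and centromere genes had low counts. Of 14 tested, 12 were higher on average in mutants and the median log2 fold change was 0.49, and with total counts as the scale 9 were above 0 with a median of 0.17. Without grl5nt-/- replicate 2 the median over 15 tested genes was 0.24. Transcripts of spc24 (ENSDARG00000093622, chromosome 3, 19206129 to 19214241), a subunit of the Ndc80 complex that grips spindle microtubules, were at 1.55, 1.67 and 1.65 CPM in WT and 2.46, 3.72 and 3.71 CPM in grl5nt-/- libraries, from counts of 30, 28, 21, 36, 43 and 38. The WT libraries differed by little, and every mutant library was above them. Its log2 fold change of 1.01 ± 0.35 (SE, with an edgeR adjusted p of 0.405) was the highest of all members.

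The other subunits of the same complex differed from spc24 in value. The log2 fold changes of spc25, ndc80 and nuf2 were 0.67 (SE 0.42), 0.28 (SE 0.44) and -0.17 (SE 0.45), and their groups overlapped. The kinetochore motor gene cenpe, whose span overlaps cul4a, was at 9.01, 5.97 and 3.21 CPM in WT and 8.95, 9.86 and 10.9 CPM in mutant libraries, so that WT replicate 1 matched the mutant level while WT replicate 3 was far below. For cenpe the log2 fold change was 0.70 ± 0.37 (SE, with an edgeR adjusted p of 0.521). Of the 9 other tested centromere genes, cenpn, cenpl, cenpk, cenpi, cenpf and cenpw had log2 fold changes from 0.40 to 0.74, cenpp and cenph were at 0.02 and -0.05, and cenpj, whose product builds centrioles and not kinetochores, was at 0.20. Their SE ran from 0.33 to 0.63. Among those not tested, cenpo had 10, 10 and 0 counts in WT and 14, 7 and 0 in mutant libraries, and cenpv had between 2 and 7 counts in every library.

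Condensin, cohesin and chromatid separation genes had the lowest median of the mitotic groups. Of 15 tested, 12 were higher on average in mutants with a median log2 fold change of 0.14, but with total counts as the scale the direction of the group turned, 3 of 15 being above 0 with a median of -0.23. Single libraries also moved it, to 0.033 without WT replicate 3 and 0.038 without mutant replicate 2 (8 of 15 above 0 in either case), 0.25 without mutant replicate 3 and 0.44 when WT replicate 1 was left out. The condensin I subunit gene ncapd2 was at 9.27, 11.9 and 12.3 CPM in WT and 10.5, 25.5 and 16.5 CPM in grl5nt-/- libraries. Mutant replicate 1 was within the WT range. For ncapd2 the log2 fold change was 0.65 ± 0.33 (SE, with an edgeR adjusted p of 0.516). The condensin ATPase gene smc4 was at 9.11, 8.53 and 6.82 CPM in WT and 10.9, 14.1 and 9.37 CPM in mutant libraries, without overlap, and its log2 fold change was 0.49 ± 0.26 (SE, with an edgeR adjusted p of 0.521). Log2 fold changes of the condensin genes ncapg, ncapg2, ncaph, ncaph2 and ncapd3 lay between 0.10 and 0.26, each below its SE, and that of the sororin gene cdca5 was 0.33 (SE 0.46). The separase gene espl1 did not overlap between genotypes, with 3.37 to 4.06 CPM in WT and 4.17 to 5.53 CPM in mutant libraries, and a log2 fold change of 0.35 (SE 0.29).

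The gene smc5 (ENSDARG00000044282, chromosome 10, 15659969 to 15686821), whose product forms with Smc6 a complex for DNA repair and replication stress, was the member with the lowest log2 fold change. It was at 17.9, 15.99 and 11.6 CPM in WT and 11.4, 6.23 and 6.84 CPM in grl5nt-/- libraries. Every mutant library was below every WT library, mutant replicate 1 and WT replicate 3 being nearly equal. The log2 fold change was -0.89 ± 0.31 (SE, with an edgeR adjusted p of 0.405). On total counts it was -1.17, where the median of all genes was -0.34. In a fit with a term for the mt-co1 split, the genotype value of smc5 was -0.69. Its value between the sides, with over without mt-co1 reads, was -0.67. The partner gene of smc5, smc6, had 5 to 25 counts per library and a log2 fold change of 0.04 (SE 0.57).

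The mt-co1 split showed clearly in several genes of this group, and also in members of other groups. The cohesin core subunit gene smc1al was at 58.5, 53.3 and 58.8 CPM in the libraries without mt-co1 reads (WT replicates 1 and 2 and mutant replicate 1) and at 22.1, 20.4 and 22.3 CPM in those with them (WT replicate 3 and mutant replicates 2 and 3). In a fit that adds the split as a term, smc1al had a log2 fold change of -1.40 between the sides and of 0.01 between genotypes, against -0.40 without the term. The condensin gene smc2 also differed between sides, by -1.64, with 7.58 to 12.7 CPM without and 2.74 to 4.93 CPM with mt-co1 reads. In other groups the same fit gave -1.46 for kif20ba, -1.08 for kif15, 0.90 for kif18a, 0.86 for aurkb and 0.80 for bub1 between the sides. Between genotypes it gave 0.63 for bub1 and 0.40 for aurkb, against 0.97 and 0.67 without the term. For cenpe the genotype value went the other way, to 0.90 from 0.70. Over the tested members the value between the sides ran from -1.64 to 0.90 with a median of 0.09, and 38 were above 0 (48% of all genes). The cohesin gene smc3, the most abundant mitotic member per length, was at 71.8, 72.4 and 58.5 CPM in WT and 76.7, 61.3 and 49.9 CPM in mutant libraries, with a log2 fold change of -0.11 (SE 0.23), and the sign turned, to 0.01, when the split was added to the fit. The gene top2a, which encodes the topoisomerase that untangles sister chromatids, was at 20.2, 12.1 and 8.23 CPM in WT and 14.97, 17.03 and 10.3 CPM in mutant libraries. WT replicate 1 was the highest of all, and the groups overlapped throughout. Its log2 fold change was 0.06 ± 0.36 (SE, with an edgeR adjusted p of 0.942), and -0.31 on total counts, where the median of all genes was -0.34.

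**Figure D2:**
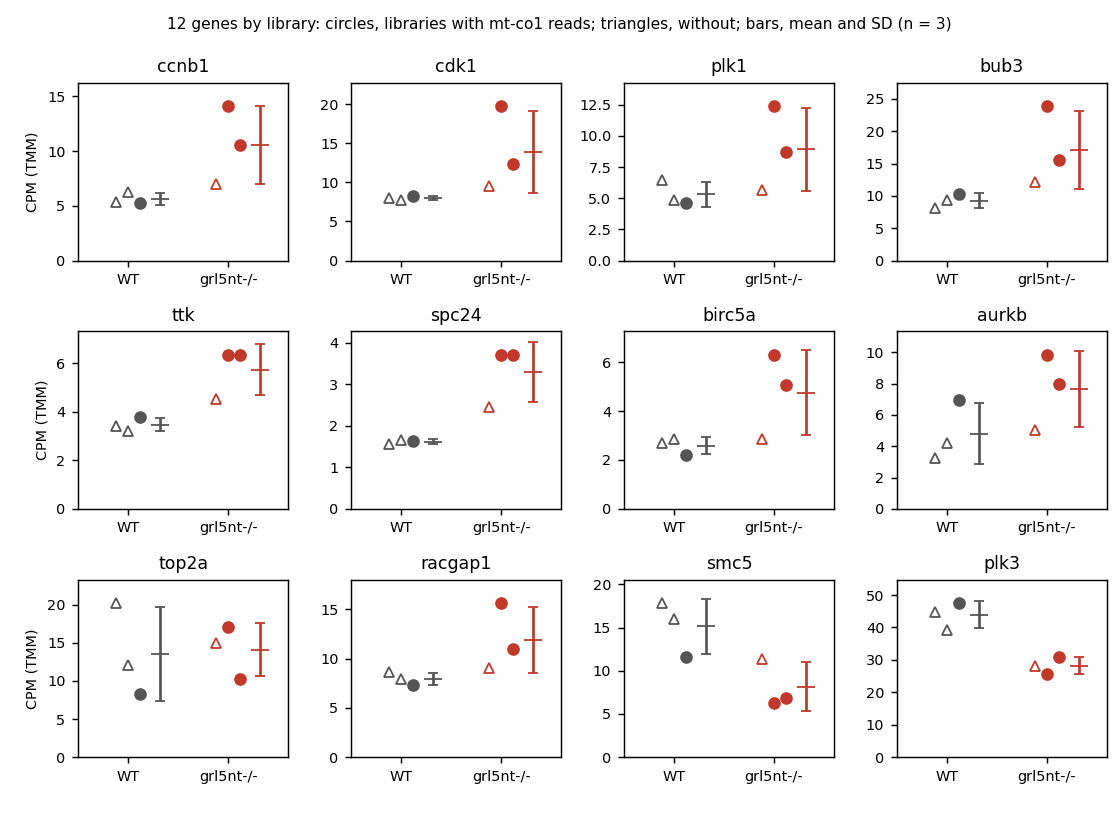
CPM with TMM factors of 12 genes in each library (vertical axes start at 0 and differ between panels). Points are libraries, WT in grey and grl5nt-/- in red, as circles where the library had mt-co1 reads and triangles where it had none, and bars are the mean with SD of 3 libraries. For ccnb1, cdk1, bub3, ttk and spc24 all red points are above all grey points, for smc5 and plk3 all are below, and top2a overlaps.

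The chromosomal passenger complex corrects faulty attachments and later marks the site of cleavage, and all 3 of its tested genes were higher on average in mutants, with a median log2 fold change of 0.68 (0.39 with total counts as the scale and 0.45 without mutant replicate 2, again 3 of 3). The survivin gene birc5a was at 2.69, 2.86 and 2.19 CPM in WT and 2.87, 6.31 and 5.08 CPM in grl5nt-/- libraries. Mutant replicate 1 and WT replicate 2 were almost equal, and the groups were apart only by that margin. For birc5a the log2 fold change was 0.87 ± 0.37 (SE, with an edgeR adjusted p of 0.467). Levels of aurkb, the catalytic subunit, were 3.26, 4.18 and 6.97 CPM in WT and 5.06, 9.86 and 8.01 CPM in mutant libraries, with overlap. Its log2 fold change was 0.67 ± 0.38 (SE, with an edgeR adjusted p of 0.543). The borealin gene cdca8, whose span overlaps the more abundant ago4, had a log2 fold change of 0.68 (SE 0.36). The second survivin gene birc5b had no count in any library, and cdca9 had 1 count in WT replicate 1, 3 in WT replicate 2 and none elsewhere.

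Spindle kinesins and Tpx2 move chromosomes and build the bipolar spindle. Of 7 tested, 6 were higher on average in mutants, with a median log2 fold change of 0.54 (0.17 with total counts as the scale, 5 of 7). Leaving out mutant replicate 2 gave a median of 0.30, and leaving out mutant replicate 3 gave 0.31. None had an unadjusted p below 0.05, where 4.22% of all genes were higher and 6.35% lower at that level. The bipolar motor gene kif11 was at 8.85, 5.31 and 5.72 CPM in WT and 8.89, 10.5 and 9.57 CPM in grl5nt-/- libraries, apart only because WT replicate 1 was slightly below mutant replicate 1. For kif11 the log2 fold change was 0.54 ± 0.28 (SE, with an edgeR adjusted p of 0.516). The chromokinesin genes kif4 and kif22 had log2 fold changes of 0.56 (SE 0.30) and 0.44 (SE 0.30), and tpx2, the activator of Aurora A, of 0.65 (SE 0.34). For kif18a, kif2c and kif15 they were 0.55, 0.22 and -0.12, with SE from 0.45 to 0.55.

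Among cytokinesis genes 7 of 9 tested were higher on average in mutants, with a median log2 fold change of 0.36. On total counts 5 of 9 were above 0 with a median of 0.00, where 24.6% of all genes were above 0 with a median of -0.34. With TMM the group median was 0.56 without WT replicate 1 and 0.23 without WT replicate 3. Transcripts of racgap1 (ENSDARG00000015460, chromosome 23, 33831745 to 33848713), whose product is part of the central spindle, were at 8.59, 7.88 and 7.37 CPM in WT and 9.09, 15.6 and 10.9 CPM in grl5nt-/- libraries. The groups did not overlap and mutant replicate 1 was just above the WT range. The log2 fold change was 0.58 ± 0.27 (SE, with an edgeR adjusted p of 0.489). Its binding partner in cytokinesis, encoded by ect2, was also apart, with 1.88 to 2.33 CPM in WT and 2.67 to 4.41 CPM in mutant libraries. By contrast kif23, which encodes the motor that forms the centralspindlin complex with Racgap1, was at 11.8, 13.5 and 16.8 CPM in WT and 11.5, 18.5 and 14.1 CPM in mutant libraries. Its log2 fold change was 0.07 ± 0.26 (SE, with an edgeR adjusted p of 0.910), and -0.24 on total counts, where the median of all genes was -0.34.

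The contractile ring gene anln was at 14.9, 12.4 and 8.38 CPM in WT and 15.4, 18.2 and 12.1 CPM in grl5nt-/- libraries, and mutant replicate 3 was below WT replicates 1 and 2. Its log2 fold change was 0.36 ± 0.28 (SE, with an edgeR adjusted p of 0.606), and 0.003 on total counts, where the median of all genes was -0.34. The kinesin gene kif20a and the microtubule bundler gene prc1a had log2 fold changes of 0.74 (SE 0.38) and 0.77 (SE 0.41). Spans of kif20a and cdc23 overlap, so reads of the pair can be shared. The paralogs prc1b, kif20ba and kif20bb were at 0.23, -0.25 and -0.29 with SE from 0.42 to 0.65.

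**Figure D3:**
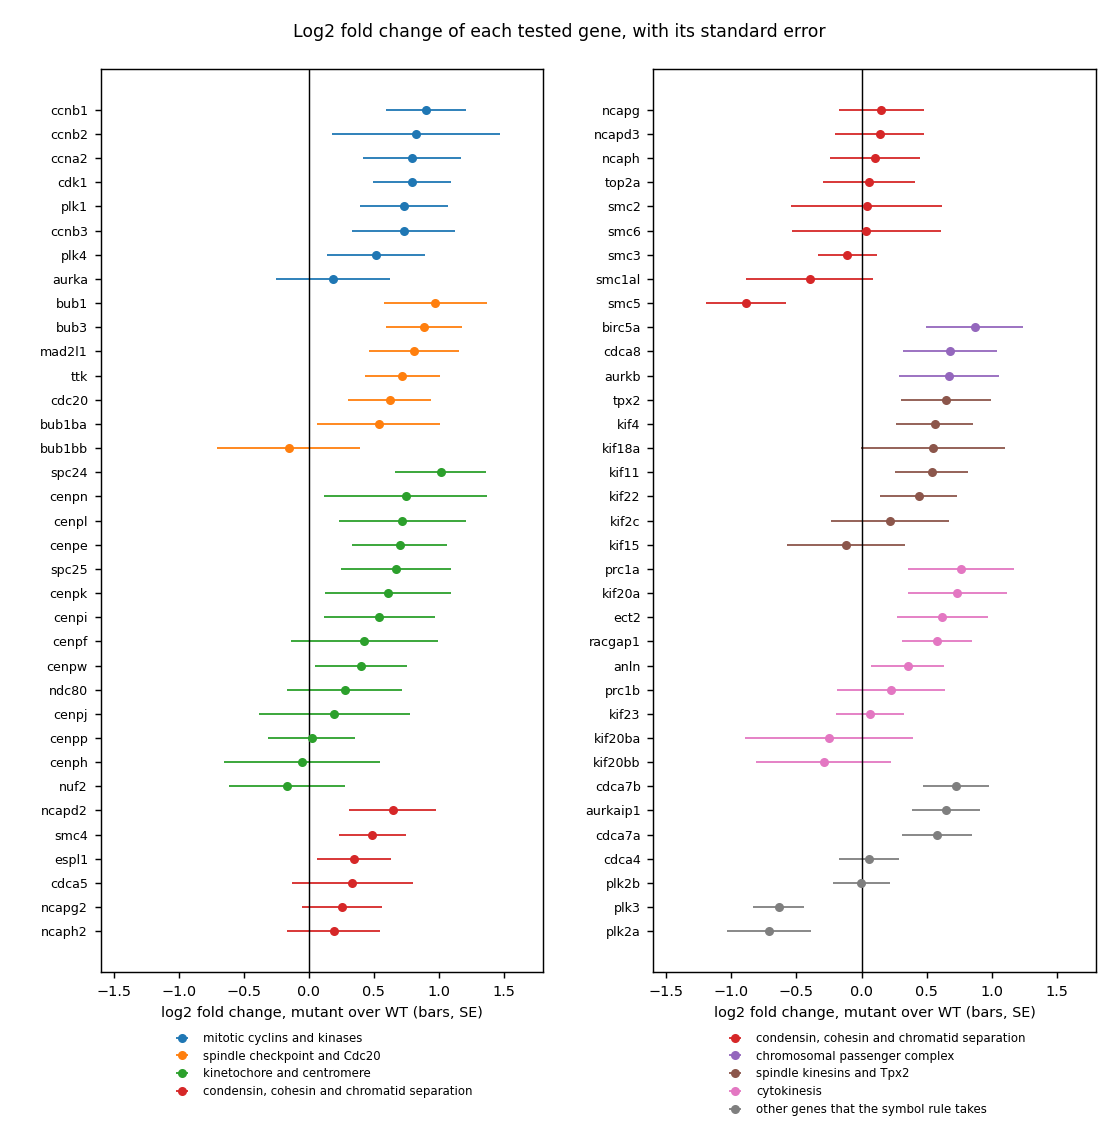
Log2 fold change, grl5nt-/- over WT, of each of the 70 tested genes (points) with its standard error (bars), in the order of roles used in the text and coloured by role. Most points lie right of 0, and those farthest left are smc5, plk2a and plk3, at -0.89, -0.71 and -0.64.

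A last set of 7 genes matches the symbols but has main roles outside the mitotic spindle. Here 4 of 7 were above 0 with a median log2 fold change of 0.06, or 3 of 7 with -0.25 on total counts. On total counts 24.6% of all genes were above 0, and the median of all genes was -0.34. With TMM and a library left out, the set's median lay between 0.035 (without WT replicate 2) and 0.20 (without WT replicate 1). In each of these fits 4 of 7 were above 0. The Polo-like kinase gene plk3 (ENSDARG00000038754, chromosome 2, 35621180 to 35629332), known in mammals as an early stress-response gene, was at 44.8, 39.3 and 47.6 CPM in WT and 28.2, 25.7 and 30.8 CPM in mutant libraries. All mutant libraries were below all WT libraries by more than the spread within either group. The log2 fold change was -0.64 ± 0.19 (SE, with an edgeR adjusted p of 0.370), and -0.92 on total counts. Its relative plk2a was at 9.53, 7.52 and 8.54 CPM in WT and 7.11, 3.37 and 5.08 CPM in mutant libraries, again apart, with a log2 fold change of -0.71 ± 0.32 (SE, with an edgeR adjusted p of 0.482). The paralog plk2b, which had the highest level per length of all members, showed 73.5 to 102 CPM over all libraries and a log2 fold change of -0.002 (SE 0.22).

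Opposite in direction were cdca7b, related to mammalian CDCA7, which acts with the chromatin remodeler HELLS, and aurkaip1, which in mammals encodes a mitochondrial ribosomal protein despite its name as an Aurora A interactor. The former was at 6.52, 8.06 and 8.15 CPM in WT and 9.64, 13.9 and 14.1 CPM in mutant libraries. All mutant libraries were higher. For cdca7b the log2 fold change was 0.73 ± 0.25 (SE, with an edgeR adjusted p of 0.405). For aurkaip1 levels were 29.2, 32.9 and 41.8 CPM in WT and 38.3, 65.7 and 59.3 CPM in mutant libraries, with overlap and a log2 fold change of 0.65 ± 0.26 (SE, with an edgeR adjusted p of 0.452). The paralog cdca7a was at 0.58 (SE 0.27) and cdca4 at 0.06 (SE 0.23). Leaving out these 7 genes, 54 of 63 (85.7%, against 46.9% of all genes) were higher on average in mutants, with a median log2 fold change of 0.52. At an unadjusted p below 0.05 by edgeR, 8 were higher (12.7%, against 4.22% of all genes) and 1 lower (1.59%, against 6.35%). Apart with mutants higher were 14 (22.2%, against 6.95% of all genes).

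Levels per length were low. Mean FPKM was at least 1 in 47 of the tested members and at least 10 in 3, which were plk2b (34.4), aurkaip1 (19.7) and smc3 (12.3). After plk3 (9.71), the next were cdk1 (7.67), smc1al (6.74) and bub3 (6.54). The summed count over 6 libraries had a median of 355 over tested members and was under 200 in 18. The cohesin genes smc1a and smc1b, the latter meiotic, had at most 4 counts in any library and were not tested.

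The members were next compared within each side of the mt-co1 split, which leaves 2 WT libraries and 1 mutant on the side without reads and the reverse on the side with them. The median difference of log2 CPM, mutant minus WT, was 0.15 without mt-co1 reads and 0.65 with them, over the 70 tested genes. It was above 0 for 49 genes on the former side and 61 on the latter, where 49.93% and 48.08% of all genes were. On both sides together 46 genes were above 0, against 31.32% of all genes. For cdk1 the within-side differences were 0.27 and 0.92 and for bub3 0.47 and 0.89, and for plk3 they were -0.57 and -0.76. With a term for the split in the model, 62 of 70 genes were above 0 with a median log2 fold change of 0.41, 11 were higher at an unadjusted p below 0.05 (8.40% of all genes), and again no member had an adjusted p below 0.05 (1.54% of all genes), the lowest being 0.0565 for plk3. By role, the median with the term (without it in brackets) was 0.60 (0.76) for cyclins and kinases and 0.63 (0.72) for the checkpoint group. It was 0.46 (0.49) for kinetochore genes, 0.47 (0.68) for the passenger complex and 0.27 (0.54) for spindle kinesins and Tpx2. Higher with the term were the condensin and cohesin group at 0.28 (0.14), cytokinesis at 0.47 (0.36) and the last set at 0.15 (0.06). A difference in the genotype effect between the sides was not tested.

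The library of grl5nt-/- replicate 2 stood highest in most members. It was the highest for 39 of the 70 genes, while WT replicate 1 was highest for 12, mutant replicate 1 for 10, mutant replicate 3 for 6, and WT replicates 3 and 2 for 2 and 1. Over the 70 genes the mean log2 CPM was 2.26, 2.06 and 1.88 in WT libraries and 2.29, 2.62 and 2.31 in mutant libraries. WT replicate 1 and mutant replicates 1 and 3 were thus close, with mutant replicate 2 above and WT replicates 2 and 3 below. Without mutant replicate 2, the median log2 fold change was 0.30, and no member was higher at an unadjusted p below 0.05 (2.08% of all genes). Without mutant replicate 1, 21 were (9.35% of all genes) and 34 were apart with mutants higher (22.1%). The mutant libraries then left, replicates 2 and 3, had mt-co1 reads. The count at an unadjusted p below 0.05 was 4 without WT replicate 1 (2.12% of all genes), 3 without WT replicate 2 (1.88%) and 4 without mutant replicate 3 (2.09%). Without WT replicate 3 it was 10 (10.6%), with 23 genes apart (21.3%). The WT libraries then left, replicates 1 and 2, had no mt-co1 reads. Leaving out any library loosens the rule for apart genes, so their number can hardly fall. What sets mutant replicate 2 apart was not tested.

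**Figure D4:**
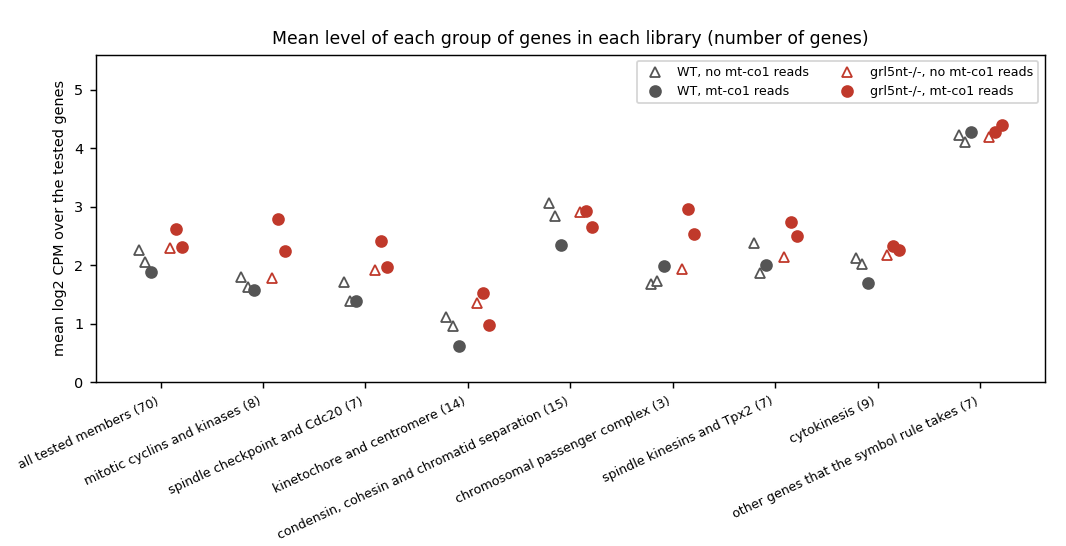
Mean log2 CPM over the tested genes of each role (vertical axis) in each library, with the number of genes in brackets. Points are libraries, WT in grey and grl5nt-/- in red, circles with and triangles without mt-co1 reads. In cyclins and kinases the 2 highest points are mutant replicates 2 and 3, at 2.78 and 2.25, and mutant replicate 1 lies among WT libraries, while in the condensin and cohesin group WT replicate 1 is highest at 3.06.

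The scale of the libraries decided how far the members stood from 0. With total counts in place of TMM factors, the median of all genes moved from -0.05 to -0.34 and only 24.6% of all genes were above 0. On that scale 41 of the 70 members were above 0 and 29 below, with a median of 0.16, no member was higher at an unadjusted p below 0.05 (1.83% of all genes), and 6 were apart with mutants higher (4.40%). Relative to the median of all genes, the members' median was higher by 0.55 with TMM and by 0.50 with total counts.

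**Figure D5:**
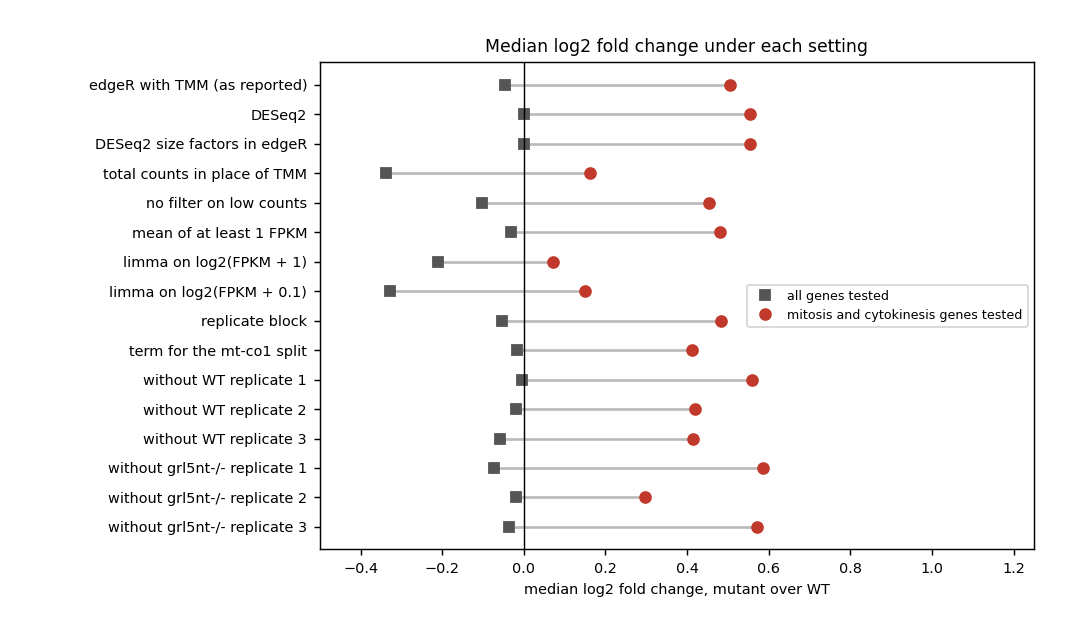
Median log2 fold change, grl5nt-/- over WT, under each way of processing the data (rows), for all genes tested (grey squares) and the mitosis and cytokinesis genes tested (red circles). The red circle lies right of the grey square in every row, with red circles between 0.07 and 0.59 and the smallest distance from square to circle, 0.28, for limma on log2(FPKM + 1).

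Other genes of mitosis that the symbols did not take were compared from a separate list, also chosen with earlier results of these data known. Of 109 listed, 86 were tested and 64 of these (74.4%, against 46.9% of all genes) were higher on average in mutants. Their median log2 fold change was 0.24, against -0.05 over all genes. Of these 6 were higher (6.98%, against 4.22% of all genes) and none lower (against 6.35%) at an unadjusted p below 0.05 by edgeR, and 18 were apart with mutants higher (20.9%, against 6.95%). The smallest p belonged to haus5, a subunit of the augmin complex that branches spindle microtubules, with a log2 fold change of 1.58 ± 0.42 (SE, with an edgeR adjusted p of 0.315), to trip13, a checkpoint ATPase that remodels Mad2 (1.48), and to ckap5, a microtubule polymerase (0.62).

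DNA replication genes, which act before mitosis, were higher on average in mutants in 39 of 43 tested (90.7%, against 46.9% of all genes). Their median log2 fold change was 0.50, against -0.05 over all genes. Of them 8 were higher at an unadjusted p below 0.05 by edgeR (18.6%, against 4.22% of all genes). Their mean log2 CPM was 3.01, 3.14 and 2.98 in WT and 3.10, 3.78 and 3.36 in mutant libraries, so that mutant replicate 2 was again highest and mutant replicate 1 within the WT range. The smallest p were those of rnaseh2a, gins2 and pcna, with log2 fold changes of 0.82, 0.81 and 0.79. Transcripts of pcna, the sliding clamp of DNA polymerase, were at 73.6, 89.1 and 88.6 CPM in WT and 91.5, 192 and 151 CPM in mutant libraries. The groups did not overlap (adjusted p = 0.419, edgeR). Neither the DNA replication genes nor the other mitosis genes were examined with total counts as the scale.

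Markers of other cells were set beside these values. Of 24 listed leukocyte genes 21 were in the table. Their summed level was 1486 to 2044 CPM in WT and 1018 to 1224 CPM in mutant libraries, without overlap. The genes cd74a and cd74b had the most counts of the list in every library and so weigh most in this sum. Of 16 tested genes 13 were lower (8288 of all 15602) and 3 higher on average. At an unadjusted p below 0.05 by edgeR, 9 were lower (56.2%, against 6.35% of all genes). Counts of mpx were 30, 31 and 32 in WT and 9, 42 and 37 in mutant libraries. The sums for other markers overlapped between genotypes but not between the sides of the mt-co1 split. Each was higher in every library with mt-co1 reads (WT replicate 3 and mutant replicates 2 and 3) than in every library without. For erythrocytes this was 36402 to 54301 CPM with and 10156 to 25243 CPM without these reads. By genotype the sums were 10156 to 52954 CPM in WT and 25243 to 54301 CPM in mutants for erythrocytes. They were 1325 to 1797 and 1675 to 2547 CPM for endothelium, and 3137 to 3809 and 2496 to 4170 CPM for epicardium and fibroblasts. Exocrine pancreas and liver markers summed to 223 to 391 CPM in WT and 258 to 544 CPM in mutants. Germ cell markers, whose cells also express many mitotic genes, summed to 4.45 to 8.38 CPM in WT and 4.72 to 8.10 CPM in mutants. The gene buc, with 47 to 87 counts per library, weighs most in the germ cell sums. Each other germ cell gene had at most 9 counts in a library, and the egg coat gene zp2.1 had no count in any. The part of these cell types in the level of the mitotic genes was not tested.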

How the data were processed

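Counts and FPKM of 32105 genes in 6 libraries (3 WT, 3 grl5nt-/-) were used. The authors removed low-quality reads with Seqtk, aligned the rest with HISAT2 2.0.4 (genome build GRCz10) and made the deposited FPKM with StringTie 1.3.0. The deposited counts are unnormalized whole numbers, and the counting program and its use of strand are not given in the sources used here, so overlapping genes (18 members) and paralogs can share reads. Libraries were made with a TruSeq kit. The methods and labels name different HiSeq models.

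Counts were normalized by TMM and tested two-sided by glmQLFit and glmQLFTest in edgeR 4.0.16 (R 4.3.3) over 15602 genes kept by filterByExpr, with genotype as the only term and Benjamini-Hochberg adjustment. SE were taken from the fold change and F. Log2 CPM used a prior count of 2, and within-side differences a pseudocount of 0.1 CPM. Limits of detection cover counting error only. The scripts were tested on simulated data that lacked the mt-co1 split and held larger changes than any member showed. That test does not measure how well changes of the present size are detected.

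Members and lists were chosen with earlier results of these data known, and so was the mt-co1 term. Named genes were, per role, the 3 with the smallest p and the most abundant by FPKM, the 2 highest and 2 lowest log2 fold changes, and cdk1, ccnb1, plk1, aurkb, top2a, cdc20 and anln, others being named for completeness. Alternatives were DESeq2 1.42.0, its size factors, total counts, a replicate block, a term for the mt-co1 split, each library left out, limma 3.58.1 on FPKM after adding 1 or 0.1 and taking log2, genes of at least 1 FPKM on average, no low-count filter, and members without the last role. All 77 identifiers were found in a table of gene names. The 6 overexpression samples were not analysed here.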

Additional observations from a re-analysis of the deposited data

How the results depend on the processing

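No member reached an adjusted p below 0.05 by edgeR, DESeq2 or limma under any alternative, against 10 higher at an unadjusted p. Between 3 and 242 of all genes tested reached that adjusted level under the alternatives. That count of 10 (against 4.22% of all genes) was 0 with total counts (1.83% of all genes). It was 1 with limma on log2(FPKM + 1) (2.17%) and 0 with log2(FPKM + 0.1) (2.19%). With a library left out it was between 0 and 21, against 1.88% to 10.6% of all genes. Members lower at that level, 2 in the report (against 6.35% of all genes), were 1 with total counts and 1 without the genes of other roles. They were 1 to 4 with a library left out, and the share of all genes lower was not computed for total counts or these fits. Members apart with mutants higher, 15 in the report (6.95% of all genes), were 6 with total counts (4.40%) and 6 with either limma fit (4.27%). With a library left out they were 17 to 34 (8.62% to 22.1% of all genes). Leaving out a library loosens the rule for apart genes, so this count can hardly fall. With a mean of at least 1 FPKM, 38 of 47 were above 0, fewer because fewer genes were tested. The median of 0.50 was 0.16 with total counts, 0.072 and 0.15 with limma on log2(FPKM + 1) and log2(FPKM + 0.1), and 0.30 to 0.59 with a library left out. The limma fits took FPKM without TMM factors. The median of all genes, -0.05 in the report, was -0.34 with total counts and -0.21 and -0.33 with these limma fits. Above it the members' median stood by 0.55 in the report, 0.50 with total counts, and 0.28 and 0.48 with limma. The cause of these shifts was not tested.

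Of 478 alternative values of 32 named members, 459 kept their direction. Many of these members were named for a small p in these same data, which favours a stable sign. The size of the value did not enter this count. Adjusted p ran from 0.0565 to 0.998, so no value was below the threshold in any fit. The 19 others turned in sign and belong to 4 genes near 0. For smc3 the value was 0.0093 with the mt-co1 term and -0.25 to 0.038 with a library left out. For top2a it was -0.31 with total counts, -0.0084 with at least 1 FPKM, -0.15 and -0.17 with limma, and -0.18 to 0.48 with a library left out. For kif23 it was -0.24 with total counts, -0.18 and -0.23 with limma, -0.089 with the mt-co1 term and -0.13 to 0.24 with a library left out. For plk2b it was 0.043 with DESeq2, 0.042 with its size factors, and -0.077 to 0.17 with a library left out. Over all 70 tested members, 58 were above 0 in the report. With total counts 41 were (24.6% of all genes), and with either limma fit also 41 (24.3%).

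Same-numbered WT and mutant libraries had deviations that correlated at 0.593, -0.338 and 0.385. Over all pairs, libraries on the same side of the mt-co1 split correlated positively and those on different sides negatively. These values therefore cannot show whether the numbers pair the samples. With the replicate block, 10 members were higher (7.2% of all genes, against 4.22% without the block) and 3 lower at an unadjusted p below 0.05. The share of all genes lower with the block was not computed. With it the median was 0.48, plk2b was at 0.0072, and 132 of all genes had an adjusted p below 0.05. Depth is lowest for the 18 tested members with a summed count under 200 over the 6 libraries.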

Other observations

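Genes with upper-case symbols were not taken by the rule, which was matched with case as written. MAD2L2, a polymerase zeta subunit related to Mad2, had counts of 109, 144 and 75 in WT and 53, 97 and 47 in grl5nt-/- libraries, in the order of the replicate numbers. ECT2L had between 2 and 10 counts in each library, and CCNB1IP1 had none in any.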
